A study of Mus musculus with 4 samples.

Results

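Keratin genes encode the filament proteins of epithelial cells, and the 53 described here were all protein-coding genes of the mouse genome whose symbol is Krt followed by a number, out of 21887 protein-coding genes in all. They lie in 2 clusters, with 27 genes on chromosome 11 (type I) and 26 on chromosome 15 (type II, together with the type I gene Krt18 at its edge). Genes for keratin-associated proteins were not members. By where each keratin is known to be made, the genes were sorted into 4 basal, 13 suprabasal, 12 root sheath, 16 hair shaft and nail, and 8 simple epithelial and other genes. Krt85, and Krt74, which the gene table used here lists as a transcribed pseudogene, were not analysed here.

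The genes were examined in accessible chromatin of hair follicle stem cells (HFSC) from mice, measured by ATAC-seq, an assay that marks open DNA by inserting sequencing adapters with the enzyme Tn5. The groups were 2 samples labelled Irx5KO and 2 samples labelled WT, and the series title places the gene Irx5, which encodes an Iroquois homeobox factor, in DNA repair and stem cell activation. The sort kept cells without Ly-6A/E that carried CD34 and a marker written CD45f, whose meaning the labels do not state. The labels give neither the allele nor the strain, age or sex of the mice, nor whether the deletion reached the whole animal or the epithelium alone.

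Keratins work as pairs of a type I and a type II protein, and each layer of the skin uses its own pairs. Dividing basal cells make Krt5 and Krt14, cells that leave the basal layer switch to Krt1 and Krt10, and the layers of the hair follicle use further sets for the outer sheath, the inner sheath and the shaft. Stem cells of the bulge carry the basal pair along with Krt15 and Krt19, while the inner sheath and shaft keratins are made by their descendants during hair growth.

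The deposited data are 1 list of peaks (regions called open) per genotype, each made from both of its replicates. Replicates can therefore not be set against each other, and the genotypes were compared by counts, without a test. Each range in brackets is a 95% Wilson interval that covers counting error only. On the standard chromosomes of build mm10 there were 484992 Irx5KO peaks and 498061 WT peaks, and read depth per sample is not given in the lists. Irx5 itself (chromosome 8, 92357796 to 92361456) was assigned 23 peaks in Irx5KO and 15 in WT, of which 4 and 2 lay over the gene. Open DNA at a gene does not check its deletion, so the labels stand unchecked. All 7 HFSC marker genes examined had a peak at a gene end in both lists, against 75.2% of all coding genes. Over all coding genes, 81.3% had such a peak in Irx5KO and 79.2% in WT. Of the markers of other skin cells, Irx5KO and WT had gene-end peaks at 2 and 4 of 5 melanocyte genes, 0 and 3 of 4 immune genes, 3 and 2 of 4 fibroblast genes, and 2 and 3 of 4 endothelial genes. The part of such cells in the results on keratins was not tested. In a sorted bulk population, a site open in fewer cells and a site less open in each cell cannot be told apart.

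Open sites at the ends of keratin genes were few in both genotypes. A gene-end peak is a peak that overlaps the 1000 bp on either side of the start or the end of the gene. Such peaks were present at 24 of 53 keratin genes in Irx5KO (45.3%, 32.7 to 58.5) and at 20 in WT (37.7%), against 81.3% of all coding genes in Irx5KO and 79.2% in WT. No peak at all was assigned to 6 keratin genes in Irx5KO (all coding genes: 3.97%) and to 9 in WT (all coding genes: 4.88%). The gene body was free of peaks at 21 keratin genes in Irx5KO (all coding genes: 10.8%) and at 27 in WT (all coding genes: 11.9%). A short or crowded gene has less room for peaks of its own. Keratin genes spanned 2812 bp (Krt16) to 50624 bp (Krt78), and neither length nor spacing was matched in these comparisons. Ends were marked in both lists at 17 keratin genes (all coding genes: 75.2%). In Irx5KO only, 7 were marked (all coding genes: 6.07%), namely Krt1, Krt10, Krt12, Krt19, Krt79, Krt83 and Krt87. In WT only, 3 were marked (all coding genes: 3.99%), namely Krt2, Krt8 and Krt33a. The other 26 keratin genes had none in either list, against 14.7% of all coding genes. Calls in 1 list only depended on the window: with 500 bp Krt10, Krt12, Krt79, Krt2 and Krt33a were marked in neither list, and with 3000 bp Krt19, Krt83, Krt87, Krt2, Krt8 and Krt33a were marked in both. Of these 10 genes Krt1 alone kept its call with all 3 windows. By group, all 4 basal and all 5 outer sheath and companion layer genes were marked in Irx5KO, and none of the 7 inner sheath genes was marked in either list.

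**Figure D1:**
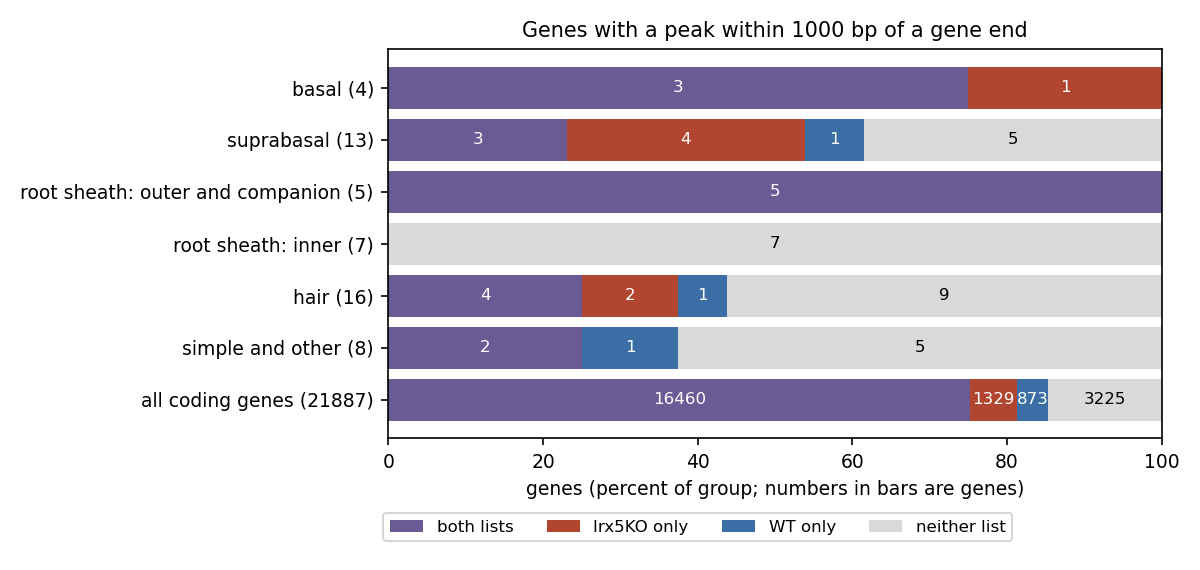
Percent of genes (horizontal axis, with numbers of genes in the bars) by the list in which a peak lay within 1000 bp of a gene end. Each group of keratins and all coding genes have a bar. Outer sheath and companion layer genes were all marked in both lists (5 of 5), inner sheath genes in neither (7 of 7), and suprabasal genes gave the most genes marked in Irx5KO only (4).

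RefSeq promoter sequences (250 bases before to 50 bases after the transcription start, build GRCm38.p6, the assembly of mm10) were available for 37 promoters of 36 keratin genes. A peak overlapped 3 of the 37 in Irx5KO (8.11%), against 66.3% of all 21263 coding promoters. In WT a peak overlapped 1 of the 37 (2.70%), against 63.0% of all. For Krt2, Krt10, Krt12, Krt14, Krt36, Krt78 and 1 of the 2 promoters of Krt13, the start in this table lies inside the gene span (the promoter at 100205981 to 100206280 for Krt14), so a peak over the outer 5′ end does not count there. The basal gene Krt5 was the 1 covered in both lists, over all 300 bases in each. The promoters of Krt75, a gene of the companion layer, and Krt42, a gene of the nail, were overlapped in Irx5KO only, over 134 and 171 bases. These 3 are shown because they are the keratin promoters with a peak, and Krt31 and Krt32, a pair of hair shaft genes without one, are shown for the motifs they share. Their positions, all on the minus strand, are chr15:101712856-101713155 for Krt5, chr15:101573855-101574154 for Krt75, chr11:100269902-100270201 for Krt42, chr11:100050502-100050801 for Krt31 and chr11:100088220-100088519 for Krt32. Sequences run 5′ to 3′, and capitals mark matches to the motifs searched.
Krt5: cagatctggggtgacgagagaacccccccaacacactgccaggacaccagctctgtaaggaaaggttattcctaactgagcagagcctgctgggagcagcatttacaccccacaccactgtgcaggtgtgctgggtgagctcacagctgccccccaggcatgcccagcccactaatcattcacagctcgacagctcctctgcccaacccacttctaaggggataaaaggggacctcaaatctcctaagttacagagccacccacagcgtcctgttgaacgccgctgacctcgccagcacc
Krt75: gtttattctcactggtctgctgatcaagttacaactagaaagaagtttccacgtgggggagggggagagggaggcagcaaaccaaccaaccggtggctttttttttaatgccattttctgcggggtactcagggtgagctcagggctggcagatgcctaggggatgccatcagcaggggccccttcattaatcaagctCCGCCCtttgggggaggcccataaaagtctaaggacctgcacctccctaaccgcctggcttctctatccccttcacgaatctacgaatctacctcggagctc
Krt42: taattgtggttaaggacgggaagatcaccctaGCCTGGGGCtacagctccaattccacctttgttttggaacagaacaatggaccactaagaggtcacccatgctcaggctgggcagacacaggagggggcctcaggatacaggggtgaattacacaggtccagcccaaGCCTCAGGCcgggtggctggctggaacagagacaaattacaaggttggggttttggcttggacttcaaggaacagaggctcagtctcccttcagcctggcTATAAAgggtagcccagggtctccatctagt
Krt31: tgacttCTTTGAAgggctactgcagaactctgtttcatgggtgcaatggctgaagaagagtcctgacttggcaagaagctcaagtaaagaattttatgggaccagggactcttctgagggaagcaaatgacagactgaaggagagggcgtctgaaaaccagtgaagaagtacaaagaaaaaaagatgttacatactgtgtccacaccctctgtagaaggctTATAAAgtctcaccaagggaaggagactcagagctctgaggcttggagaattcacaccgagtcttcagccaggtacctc
Krt32: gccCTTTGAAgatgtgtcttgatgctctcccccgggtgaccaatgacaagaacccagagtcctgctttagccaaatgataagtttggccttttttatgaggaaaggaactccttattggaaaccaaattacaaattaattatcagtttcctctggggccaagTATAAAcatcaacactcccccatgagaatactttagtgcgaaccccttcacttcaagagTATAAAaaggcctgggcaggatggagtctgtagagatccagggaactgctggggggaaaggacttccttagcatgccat

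The 6 motifs, each searched on both strands, were TATAAA (the TATA box), TGANTCA (AP-1), ACANNTGT (Iroquois factors), GCCNNNGGC (AP-2), CTTTGAA (LEF/TCF factors) and GGGCGG (the GC box). TATAAA was present in 19 of 37 keratin promoters (51.4%) and in 12.6% of all coding promoters, and in 12 keratin genes it began 20 to 35 bases before the start. The GC box ran the other way, in 2 keratin promoters (5.41%) and in 46.2% of all, and median GC content was 48.7% in keratin promoters and 56.3% in all. CTTTGAA was present in 6 keratin promoters (16.2%; all coding promoters 4.54%), which were 5 of the 10 hair promoters and that of the inner sheath gene Krt28. In Krt31, Krt32, Krt33b and Krt34 it began between 247 and 240 bases before the start, as the first capitals of Krt31 and Krt32 show. These hair genes are related copies of one another, so their matches are not independent. GCCNNNGGC was present in 18.9% of keratin promoters (all: 19.9%), TGANTCA in 5.41%, both of them promoters of Krt13 (all: 6.99%), and ACANNTGT in 2.70%, at Krt23 (all: 6.06%). A match is a description of the letters and not of binding.

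Among the 4 basal and bulge genes, all had a gene-end peak in Irx5KO and 3 of 4 had one in WT, the exception being Krt19. Together they held 23 peaks in Irx5KO and 18 in WT, where each peak counts for the coding gene with the nearest end within 50 kb. A peak that overlapped no peak of the other list, by even 1 bp, is called private here, and the rest are called shared. Of the basal peaks 10 were private to Irx5KO and 5 to WT, and 13 in each list were shared.

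Krt14 (chromosome 11, 100203162 to 100207510), the type I keratin of basal cells, had 7 peaks in Irx5KO and 5 in WT. The peak over its 5′ end ran from 100207251 to 100209180 in Irx5KO, a width of 1930 bp, and from 100206941 to 100207960 in WT, a width of 1020 bp. By the authors' score it ranked at percentile 51.0 of the Irx5KO list and 31.7 of the WT list, where percentile 100 is the highest score. The next peak upstream was also shared, at 100209471 to 100210120 in Irx5KO and 100209781 to 100210280 in WT. A pair of peaks inside the gene, at 100204961 and 100206291, was listed in Irx5KO only, the first at percentile 26.3 and the second lower. The WT list held a private peak of its own beyond the 3′ end, at 100202221 to 100202490 (percentile 34.5). Irx5KO-only peaks lay beyond that end too, at 100200071 and 100200701. Of the peaks of Krt14, 4 were private to Irx5KO and 2 to WT, the other WT-only peak lying upstream at 100218911.

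Krt5 (chromosome 15, 101707069 to 101712905), the type II partner of Krt14, was among the 9 genes with more WT-only than Irx5KO-only peaks: 6 peaks in Irx5KO, none of them private, and 8 in WT, of which 2 were private. At its start a pair of peaks of 510 and 650 bp was listed in Irx5KO (101712031 to 101712540 and 101712581 to 101713230), against a single peak of 1100 bp in WT (101712211 to 101713310). The promoter sequence of Krt5 printed above lies inside the second Irx5KO peak and inside the WT peak. The WT-only peaks lay 6290 and 9215 bp upstream, at percentiles of 30.4 and 0.25.

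Krt15 (chromosome 11, 100131759 to 100135949), a keratin that marks the bulge, had 5 peaks in Irx5KO and 3 in WT, and 2 of those in Irx5KO were private to it. A 230 bp Irx5KO-only peak at 100135861 to 100136090 sat across the upper end of the gene. A shared 200 bp peak lay just beyond it, at 100136181 to 100136380 in Irx5KO and 100136121 to 100136320 in WT. The strand of Krt15 is not given in the tables used here.

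Krt19 (chromosome 11, 100140810 to 100145926), another bulge keratin, had 5 peaks in Irx5KO, of which 4 were private, and 2 in WT, of which 1 was private. The Irx5KO list held a pair of peaks of 210 and 220 bp just inside its lower end, at 100140911 and 100141191. Both ranked low, at percentiles 7.26 and 8.17. The nearest WT peak assigned to Krt19 lay 15249 bp from its nearest end. A WT peak at 100137771 to 100138080 lay closer, but it counts for Krt15, whose end is nearer. That peak was 270 bp from an Irx5KO-only peak of Krt19, at 100138351 to 100138750. The only shared peak assigned to Krt19 lay farther away than 15249 bp, at 100162951 to 100163600 in Irx5KO and 100163071 to 100163360 in WT.

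**Figure D2:**
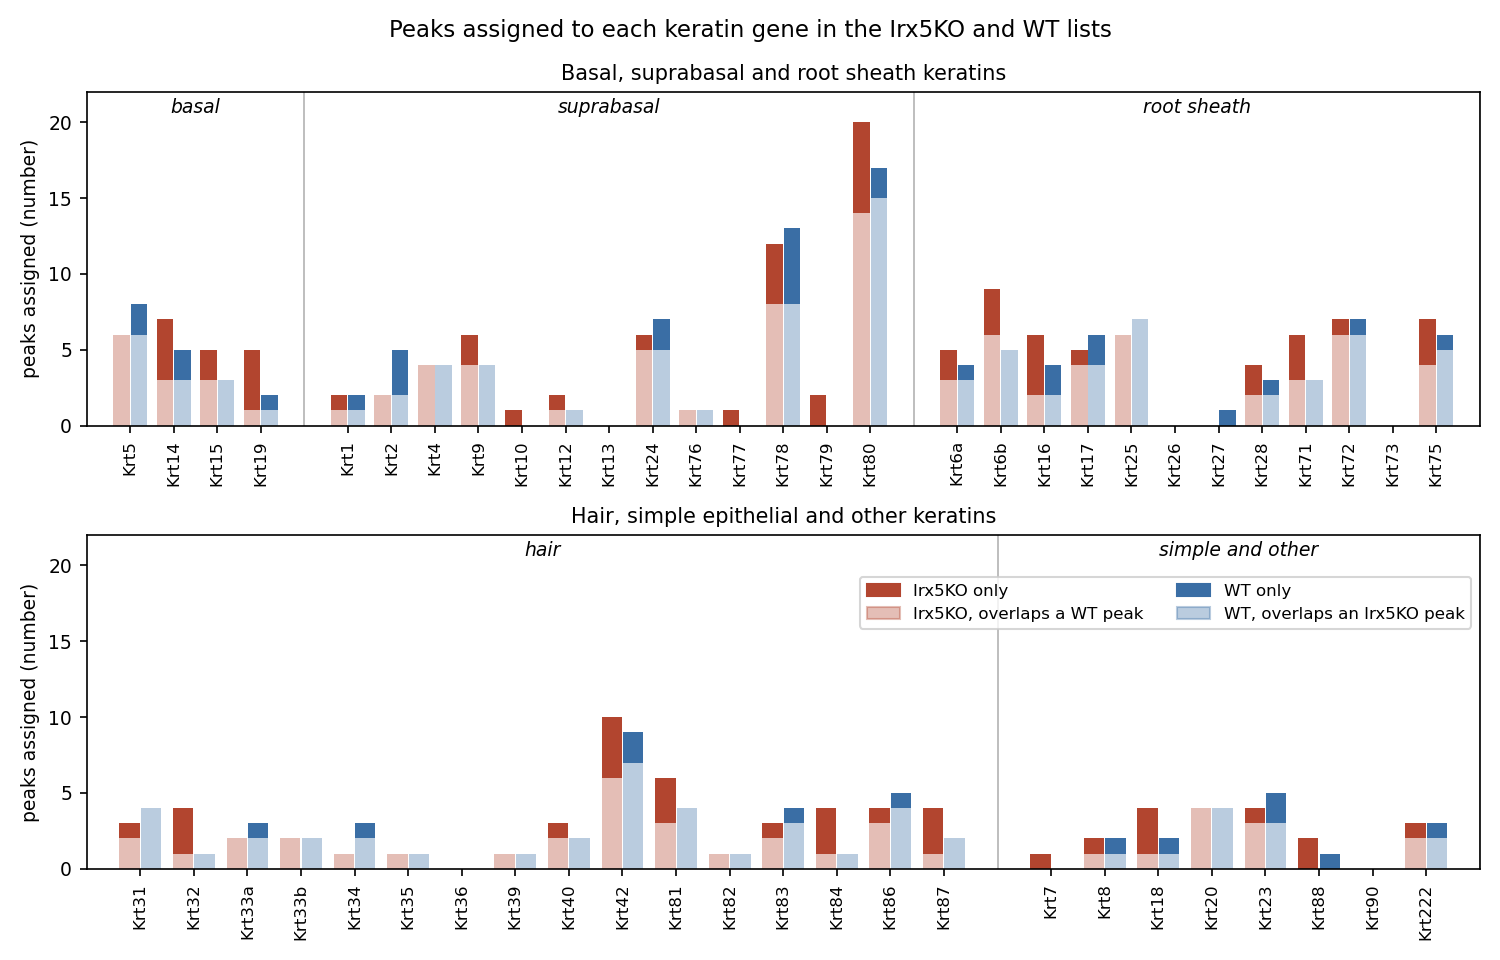
Number of peaks assigned to each of the 53 keratin genes, Irx5KO beside WT, with each bar divided into peaks that overlap the other list and peaks listed in 1 genotype only. Krt80 held the most peaks (20 in Irx5KO, 17 in WT), Krt19 had 4 Irx5KO-only peaks of 5, and Krt13, Krt26, Krt36, Krt73 and Krt90 had none assigned.

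The 13 suprabasal genes, made in cells that leave the basal layer or in other stratified epithelia, held 59 peaks in Irx5KO and 54 in WT, with 19 and 13 private to each list. Gene-end peaks were present at 7 in Irx5KO and 4 in WT. The epidermal pair Krt1 and Krt10, Krt79 of the upper follicle and sebaceous duct, and Krt12, the keratin of the cornea, were marked in Irx5KO only. Krt2, a late epidermal keratin, was marked in WT only. Krt9 of the paw skin, Krt78 and Krt80 were marked in both, and Krt4, Krt13, Krt24, Krt76 and Krt77 in neither.

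The peaks behind these Irx5KO-only calls were single, small and often at the far end of the gene. For Krt10 the peak was the only one in either list, a 430 bp region inside the gene at its 3′ end (99386111 to 99386540, percentile 10.8). For Krt12 it was a 320 bp peak beyond the 3′ end (99414741 to 99415060, percentile 20.4), and for Krt79 a 250 bp peak inside the 3′ end (101929861 to 101930110, percentile 6.08). Krt79 had 1 further Irx5KO-only peak and none in WT. For Krt1 the peak was 310 bp wide and ranked near the middle of the list (101844631 to 101844940, percentile 49.7).

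Krt2 (chromosome 15, 101810689 to 101818956) ran the other way, with 2 peaks in Irx5KO, both shared, and 5 in WT, of which 3 were private. The private ones were spaced along its upstream flank, 909, 3604 and 6234 bp from the 5′ end, and the nearest of them (101819661 to 101820070) ranked at percentile 61.6. A 1440 bp peak beyond its 3′ end was almost the same in both lists, at 101807911 to 101809350 in Irx5KO and 101807921 to 101809350 in WT. A second shared peak, inside the gene, was 630 bp wide at percentile 46.2 in Irx5KO and 350 bp wide at percentile 85.7 in WT.

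Krt80 (chromosome 15, 101348315 to 101370162), a keratin of many stratified epithelia, had the most peaks of any keratin gene, 20 in Irx5KO and 17 in WT, of which 6 and 2 were private. Krt78 came next with 12 in Irx5KO and 13 in WT, of which 4 and 5 were private. Krt9 had 6 peaks in Irx5KO, with 2 private, and 4 in WT, all shared. Krt24 had 6 in Irx5KO, with 1 private, and 7 in WT, with 2 private. Krt4, a mucosal keratin, had the same 4 peaks in both lists, the highest at percentile 95.3 in Irx5KO and 96.6 in WT. Krt76 had 1 shared peak, Krt77 had 1 peak in Irx5KO alone, and Krt13, the mucosal partner of Krt4, had no peak in either list.

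The 12 root sheath genes divided by layer. The outer sheath genes Krt6a, Krt6b, Krt16 and Krt17, which are also switched on in wounded epidermis, and the companion layer gene Krt75 had gene-end peaks in both lists, 5 of 5 in Irx5KO and 5 of 5 in WT. The inner sheath genes Krt25, Krt26, Krt27, Krt28, Krt71, Krt72 and Krt73 had none, 0 of 7 in Irx5KO and 0 of 7 in WT. With a window of 3000 bp the inner sheath count became 4 of 7 in Irx5KO and 3 of 7 in WT.

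The highest-ranked keratin peak in both lists belonged to this group. It was a 6450 bp peak at chr15:101655651-101662100 in Irx5KO (percentile 99.4) and a 6380 bp peak at chr15:101655661-101662040 in WT (percentile 99.3), with its midpoint 17147 bp below Krt6b in the Irx5KO list. Krt75 also had a high-ranked peak, of 2450 bp in Irx5KO (101576801 to 101579250, percentile 97.3) and of 2460 bp in WT (101576781 to 101579240, percentile 95.7), with its midpoint 4121 bp upstream of the gene in Irx5KO and 4106 bp in WT. The borders of both regions nearly coincided between the lists.

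At Krt75 (chromosome 15, 101563343 to 101573904) the lists differed at the start. A 210 bp Irx5KO-only peak at 101574021 to 101574230 overlapped the promoter printed above, at percentile 9.32, and no WT peak lay there. In all Krt75 had 7 peaks in Irx5KO, with 3 private, and 6 in WT, with 1 private. Krt6b had 9 in Irx5KO, with 3 private, and 5 in WT, all shared. The upper-end peak of Krt6a was 1580 bp wide in Irx5KO and 1040 bp in WT, and that of Krt6b was 980 bp wide in Irx5KO and 600 bp in WT. Krt6a and Krt6b are close copies of each other, so reads at these peaks may be divided between them in either list.

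Krt16 had 6 peaks in Irx5KO, with 4 private, and 4 in WT, with 2 private, and its gene-end peaks in the lists did not overlap each other: 100246511 to 100246770 and 100248821 to 100249420 in Irx5KO, against 100245311 to 100245530 in WT. Krt17 had 5 peaks in Irx5KO, with 1 private, and 6 in WT, with 2 private, and its upper end was covered by a shared peak in both (percentile 65.7 in Irx5KO, 32.1 in WT).

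Inner sheath genes had peaks, though none within 1000 bp of an end. Peaks lay over the body of 3 of the 7 in Irx5KO (Krt28, Krt71 and Krt72) and of 2 in WT (Krt71 and Krt72). Krt25 had 6 in Irx5KO and 7 in WT, all shared, the nearest to the gene 2360 and 2370 bp away. Krt72 had 7 in each list, with 1 private in each. Krt71, a type II keratin of all layers of the inner sheath, had 6 in Irx5KO, with 3 private, and 3 in WT, all shared. Krt28 had 4 in Irx5KO and 3 in WT, with 2 and 1 private. Krt27 had none in Irx5KO and 1 in WT, which ranked at percentile 73.4, and Krt26 and Krt73 had none in either list.

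**Figure D3:**
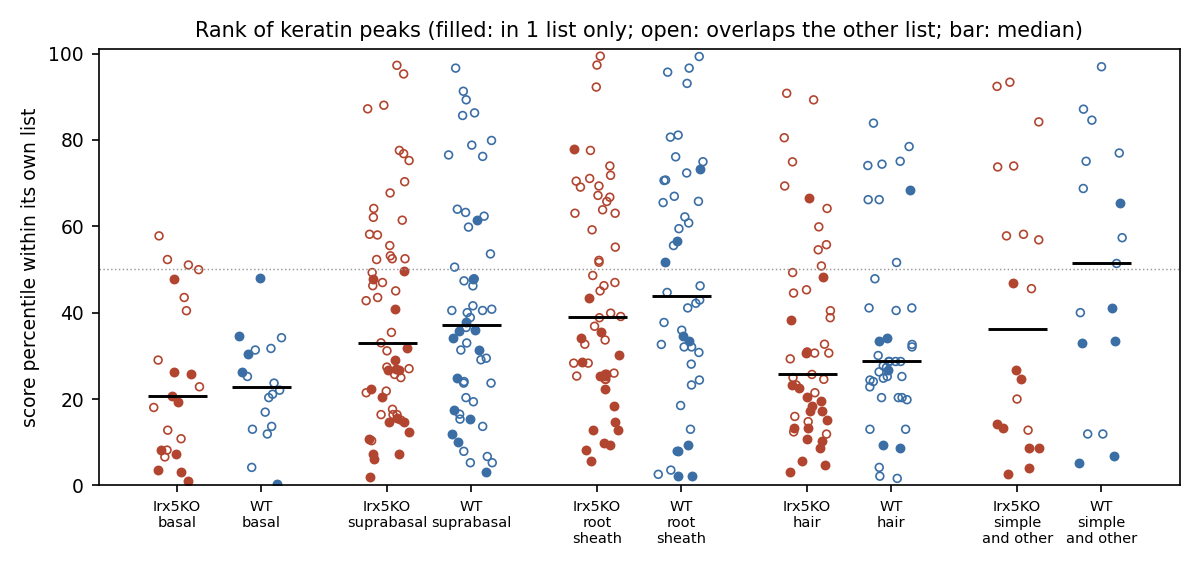
Percentile of each keratin peak by the authors' score within its own list (vertical axis), by group of keratins, with Irx5KO left of WT. Filled points are listed in 1 genotype only, open points overlap the other list and bars are medians, and the filled Irx5KO points lie mostly in the lower part, with a median of 18.4.

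The 16 hair shaft and nail genes held 49 peaks in Irx5KO and 43 in WT, of which 20 and 6 were private. Where a peak counted as shared only if the other list covered at least 50% of it, 22 were private to Irx5KO and 13 to WT, so the share of Irx5KO among them was 62.9% in place of 76.9%. Gene-end peaks were present at 6 in Irx5KO and 5 in WT. Krt34, Krt42, Krt81 and Krt86 were marked in both, Krt83 and Krt87 in Irx5KO only, Krt33a in WT only, and the other 9 in neither. None of these genes kept a gene-end peak in either list once only the upper 50% of each list by score was used. Over all 21887 coding genes, 11369 then had one in Irx5KO and 9364 in WT. Other keratin groups lost theirs too. Outer sheath and companion layer genes kept 2 of 5 in Irx5KO and 1 of 5 in WT, and basal genes 2 of 4 and 0 of 4.

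The Irx5KO-only peaks were spread over many hair genes. The hair keratin genes Krt32, Krt81, Krt84 and Krt87 had 3 each and no WT-only peak. At Krt84 (chromosome 15, 101525026 to 101532820) 4 peaks were assigned in Irx5KO and 1 in WT, and an Irx5KO-only peak 2535 bp below the gene ranked at percentile 66.4. At Krt32 (chromosome 11, 100080848 to 100088269) 4 were assigned in Irx5KO and 1 in WT, and the private ones ranked at percentiles between 4.63 and 30.6. The Krt32 promoter shown above held no peak in either list, and neither did that of Krt31.

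Krt42, the nail keratin and next neighbour of Krt17, had 10 peaks in Irx5KO, with 4 private, and 9 in WT, with 2 private. A 230 bp Irx5KO-only peak at 100270031 to 100270260 overlapped its promoter at percentile 18.4. Krt31, Krt33a, Krt33b and Krt34 lie side by side, and had 3, 2, 2 and 1 peaks in Irx5KO and 4, 3, 2 and 3 in WT. Krt83 and Krt86 had 3 and 4 in Irx5KO and 4 and 5 in WT, with 1 private in each list at each gene. Krt40 had 3 in Irx5KO and 2 in WT, Krt35, Krt39 and Krt82 had 1 shared peak in each list, and Krt36 had none. Many of these genes are near-identical copies, so their counts are uncertain where reads could map to several of them.

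The 8 simple epithelial and other genes held 20 peaks in Irx5KO and 17 in WT, of which 9 and 6 were private. Krt8 and Krt18, the keratin pair of simple epithelia, are neighbours at the edge of the type II cluster. Krt8 had 2 peaks in Irx5KO and 2 in WT, with 1 private in each, and its WT-only peak (101996881 to 101997120, percentile 5.24) made it 1 of the 3 genes marked at an end in WT only. That peak also lies within 1000 bp of the upper end of Krt78, since the genes are 86 bp apart. Krt18 had 4 peaks in Irx5KO, with 3 private, and 2 in WT, with 1 private, and none at an end. Krt20 had 4 in each list, all shared. Krt23 had 4 in Irx5KO and 5 in WT and was marked at an end in both. Krt7 had 1 weak peak in Irx5KO (percentile 4.02) and none in WT. Krt222 had 3 in each list, and Krt88 had 2 in Irx5KO and 1 in WT. Krt90 had none assigned, and the gene-end peak that marks it in both lists is the one at the 3′ end of Krt75, since the genes are 392 bp apart.

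Over all 53 genes, private peaks were more often those of Irx5KO. The keratin genes held 206 peaks in Irx5KO and 178 in WT, of which 77 and 39 were private, so that 66.4% of the private peaks (57.4 to 74.3) were Irx5KO-only, against 48% at all coding genes. Of the Irx5KO peaks 62.6% overlapped a WT peak (55.8 to 68.9; all coding genes 76.7%). Among those of WT, 78.1% met an Irx5KO peak (71.5 to 83.5; all coding genes 74.7%). Irx5KO-only peaks outnumbered WT-only peaks at 25 keratin genes (all coding genes: 36.4%). WT-only peaks outnumbered them at 9 (all coding genes: 36.6%). At the other 19 the numbers were equal, 13 of them with none in either (equal at 27% of all coding genes). At least 1 Irx5KO-only peak was assigned to 35 keratin genes (66.0%; all coding genes 74.2%). At least 1 WT-only peak was assigned to 25 (47.2%; all coding genes 71%). A difference of 3 or more towards Irx5KO was found at Krt6b, Krt19, Krt32, Krt71, Krt80, Krt81, Krt84 and Krt87, and towards WT at Krt2.

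The share was above that of all coding genes in each group: 66.7% in basal genes (41.7 to 84.8), 59.4% in suprabasal genes (42.3 to 74.5), 67.9% in root sheath genes (49.3 to 82.1), 76.9% in hair genes (57.9 to 89.0) and 60% in simple and other genes (35.7 to 80.2). These intervals overlap one another, and those of the basal, suprabasal and simple groups include 48%. It was 64.7% on chromosome 11 and 67.7% on chromosome 15. Coding genes around the clusters gave a like value. With keratin genes and genes for keratin-associated proteins left out, 85 genes within 500 kb had 114 peaks private to Irx5KO and 48 private to WT, or 70.4% (62.9 to 76.9). That comparison was added after the data were seen. The value for keratin genes thus lay within the interval of their neighbours.

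**Figure D4:**
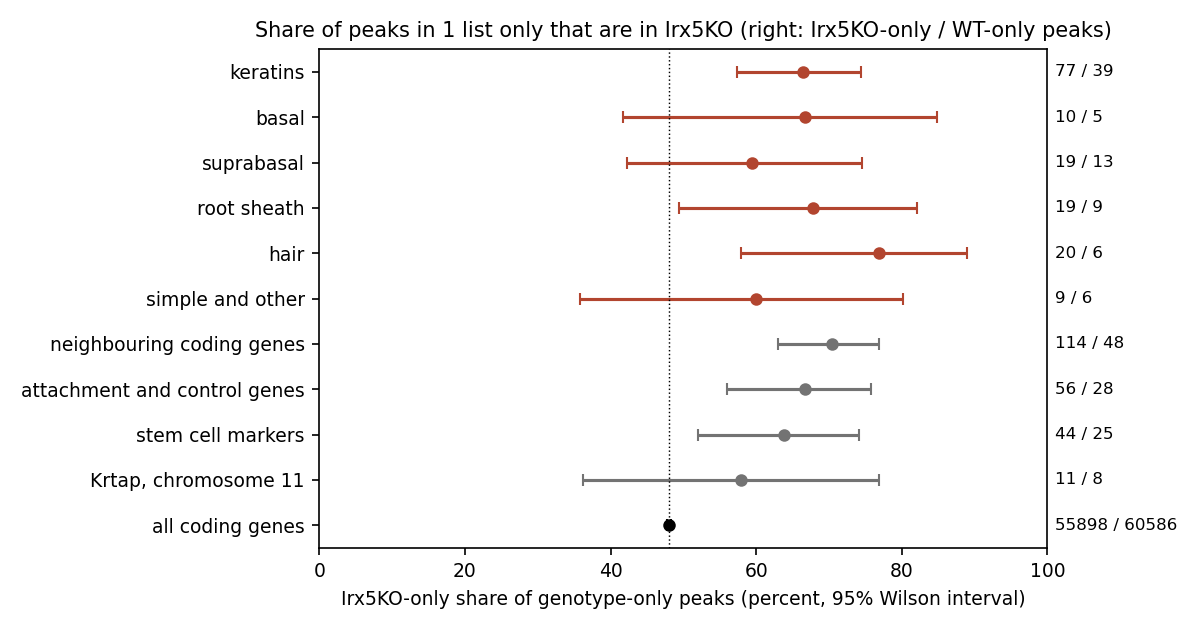
Share of genotype-only peaks that are Irx5KO-only (horizontal axis, percent) with 95% Wilson intervals, for the keratin groups and for comparison lists. All keratin genes lie at 66.4%, the coding genes around the clusters at 70.4% and all coding genes at 48%.

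Private peaks ranked low at keratin genes and at coding genes in general. Irx5KO-only keratin peaks had a median percentile of 18.4 and WT-only ones of 33.0, against 15.5 and 18.0 for private peaks at all coding genes. In the upper 50% by score, with private calls kept from the whole lists, the direction of the share turned. There 2 peaks were Irx5KO-only, at Krt16 and Krt84, and 6 were WT-only, at Krt2, Krt16, Krt27, Krt28, Krt86 and Krt222. This is 25% against 44.9% at all coding genes. Keratin peaks as a whole ranked low too, with a median percentile of 30.8 in Irx5KO and 33.3 in WT, against 46.2 and 46.4 for peaks at all coding genes. The private peaks lay a median of 2570 bp from the nearest WT peak for Irx5KO and 1600 bp from the nearest Irx5KO peak for WT.

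Shared keratin peaks, like those of the genes around them, were more often wider in Irx5KO than in WT. Of 110 pairs in which 1 peak of each list overlapped 1 of the other, 64 were wider in Irx5KO, 38 in WT and 8 equal, with median widths of 455 bp in Irx5KO and 390 bp in WT. Over all coding genes 44.5% of such pairs were wider in Irx5KO, and the medians were 460 bp in both lists. At the neighbouring coding genes 104 of 192 pairs were wider in Irx5KO and 73 in WT, with medians of 440 bp in Irx5KO and 365 bp in WT. Keratin peaks covered 106 kb in Irx5KO and 83.4 kb in WT, and peaks of the neighbouring genes covered 201 kb in Irx5KO and 162 kb in WT.

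The clusters themselves differed in how densely they were marked. The type I block from Krt222 to Krt40 (chr11:99232761-99543220), which holds the type I inner sheath genes and the hair genes Krt39 and Krt40, had 10.3 peaks per 100 kb in Irx5KO and 10.6 in WT, against 15.4 and 15.2 over chromosome 11. The type I block from Krt33a to Krt42 (chr11:100011199-100269951), which holds Krt14, Krt15 and Krt19 and most type I hair genes, had 18.9 in Irx5KO and 16.2 in WT, and peaks covered 8.62% of it in Irx5KO and 6.12% in WT. The type II cluster (chr15:101348315-102032026) had 15.9 in Irx5KO and 14.2 in WT, against 18.0 and 18.3 over chromosome 15. Private peaks numbered 7 in Irx5KO and 7 in WT in the first block, 21 and 10 in the second, and 38 and 21 in the type II cluster.

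**Figure D5:**
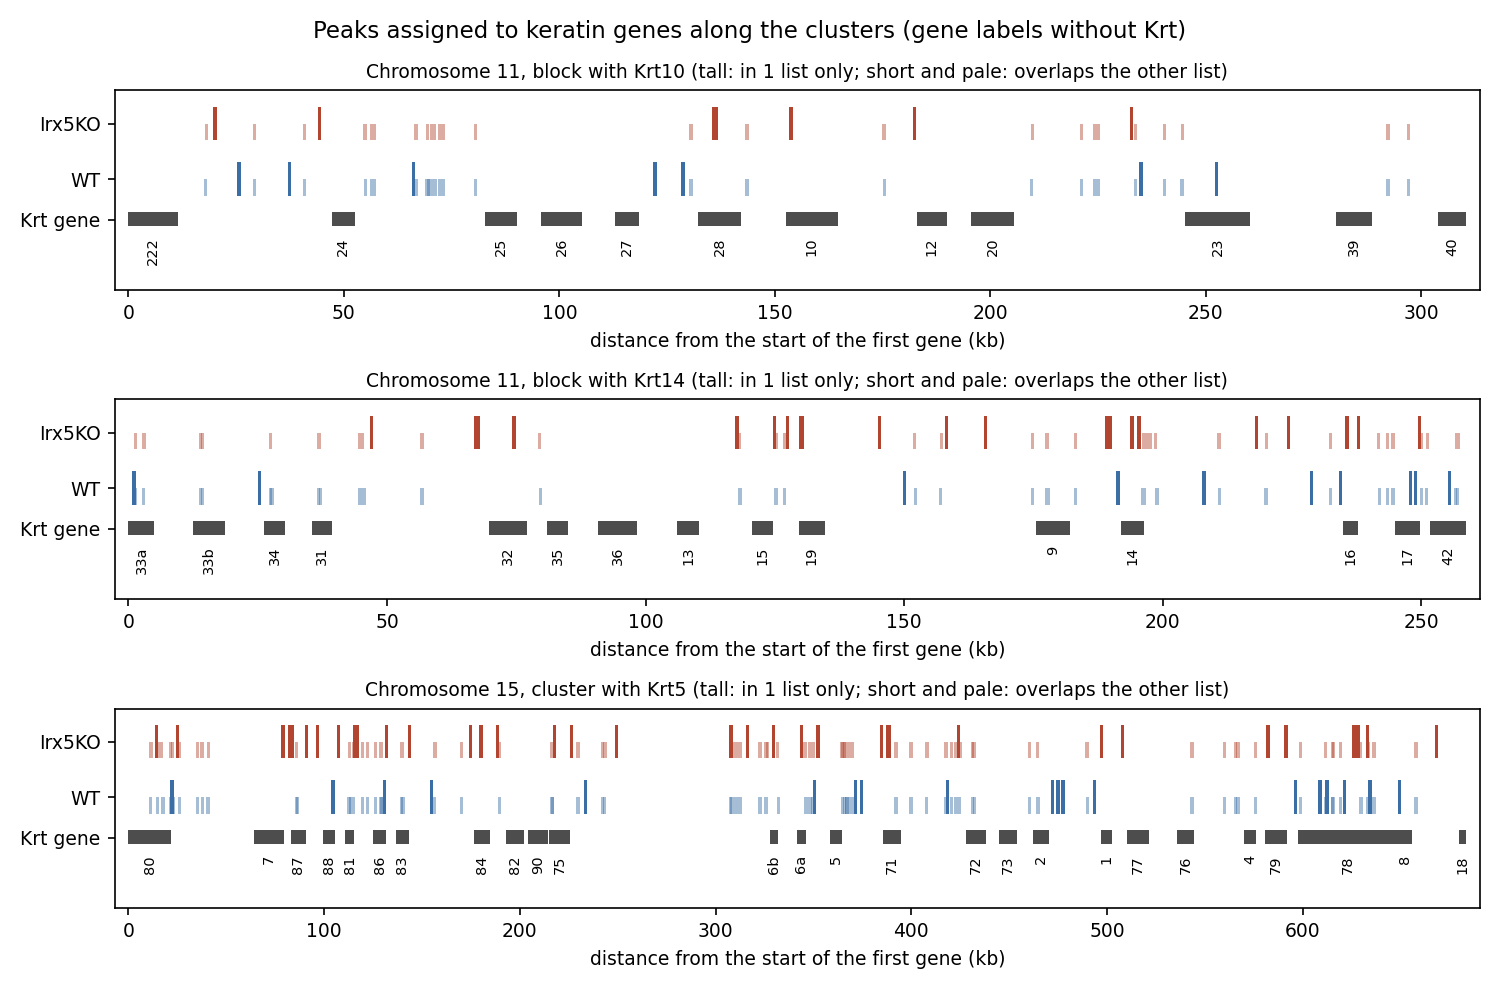
Peaks along the keratin gene blocks, drawn to scale as distance in kb from the first gene of each, with Irx5KO above WT. Colour gives the genotype, peaks in 1 list only are tall, and peaks that overlap the other list are short and pale. The block from Krt33a to Krt42 holds 21 peaks in Irx5KO only and 10 in WT only.

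Genes that anchor keratin filaments or act on keratin genes gave a share near that of the keratins, and so did the HFSC and melanocyte marker lists. The 14 genes encode mainly desmosome and hemidesmosome proteins, and include the factors Trp63 and Klf4. Jup is in this list and also among the coding genes around the clusters. Together the 14 genes held 189 peaks in Irx5KO and 161 in WT, of which 56 and 28 were private, a share of 66.7% (56.1 to 75.8). Among marker genes, the HFSC list had 44 private to Irx5KO and 25 to WT (63.8%, 52.0 to 74.1), and the melanocyte list 19 and 7 (73.1%, 53.9 to 86.3). The immune, fibroblast and endothelial lists gave lower shares of 52%, 55.3% and 53.2%, against 48% at all coding genes. In contrast to the keratin genes, 13 of the 14 attachment and control genes had a gene-end peak in Irx5KO (92.9%, 68.5 to 98.7). In WT 12 of the 14 had one (85.7%, 60.1 to 96.0). Both intervals include the shares of all coding genes, 81.3% in Irx5KO and 79.2% in WT. Plec, which links filaments to the hemidesmosome, was marked in Irx5KO only, and Trp63, a master factor of stratified epithelia, in neither. Trp63 was not without peaks, since 19 in Irx5KO and 14 in WT lay over its body. Itgb4, the hemidesmosome integrin, had 5 peaks in Irx5KO, with 4 private, and 1 in WT, which was shared. Ppl, the desmosome-linked periplakin, had 7 in Irx5KO, all shared, and 11 in WT, with 3 private. Genes for keratin-associated proteins on chromosome 11, which lie between the type I blocks, had 11 peaks private to Irx5KO and 8 private to WT, or 57.9% (36.3 to 76.9). Over all 56 genes for keratin-associated proteins the numbers were 37 and 39, or 48.7%.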

How the data were processed

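ATAC-seq libraries of HFSC, 2 labelled Irx5KO and 2 labelled WT, were deposited as 1 peak list per genotype. Per the submitters' processing notes, the build was mm10 and the tools included ChIPseeker 1.24.0, deepTools 3.4.2, Genrich 0.6, Bowtie2, cutadapt 2.9 and FastQC. Roles and settings of these tools, the treatment of reads that map to several places and any shift for the Tn5 cut were not given in the sources used here. The deposited score per peak is the authors' own value and served only for ranks inside each list. The deposited columns of q-value, p-value and signal are 0 throughout. Unplaced contigs, with 1188 Irx5KO and 1733 WT peaks, were left out.

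Gene spans came from a RefSeq table of GRCm38.p6 without strand or exons, so exons and introns were not told apart, and strand was taken from the promoter table where it held the gene. A peak was assigned to the coding gene whose end was nearest to its midpoint, within 50 kb. The members and lists were chosen with earlier results of these data known. Genes were named by rule: a gene-end peak in 1 list only, private peaks differing by 3 or more, up to 4 genes per group with the most peaks, and Krt5, Krt14, Krt15, Krt19, Krt1, Krt10, Krt79 and Krt75; the rest were named after their values were seen, to account for every member. Separate cultures or animals behind the samples are not stated. The code was tested on simulated data and against bedtools 2.31.1, and ran in Python 3.11.15 with numpy 2.4.6, pandas 2.3.3, scipy 1.17.1 and matplotlib 3.10.9. Alternatives changed the score threshold, overlap rule, gene-end window, distance and its measure, peak width and list length.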

Additional observations from a re-analysis of the deposited data

How the results depend on the processing

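No paired analysis was possible because each list pools both replicates of a genotype, and for the same reason leaving out a replicate was not run. Equal list lengths, a width limit of 2000 bp, assignment within 10 or 100 kb and distance from the peak border left the shares and gene-end counts recomputed under them on the same side of the value for all coding genes. The upper 50% of each list by score changed most: the Irx5KO-only share became 25% at keratin genes, 20% on chromosome 11, 33.3% on chromosome 15, 0% in suprabasal, 25% in root sheath, 50% in hair and 0% in simple and other genes, with no private basal peak, and it rests on 8 peaks. For the upper 50% and for the width limit, private and shared calls were kept from the whole lists. Overlap of the upper 50% with the whole other list was 96.8% of Irx5KO and 89.1% of WT keratin peaks. At all coding genes it was 96.2% and 95.3%. Gene-end peaks were then found in both lists at 4 genes, in Irx5KO only at 4 (Krt5, Krt14, Krt17 and Krt80), in WT only at 1 (Krt2) and in neither at 44. The same 4 classes held 40.1%, 11.8%, 2.64% and 45.4% of all coding genes. Requiring 50% coverage gave overlaps of 55.3% of Irx5KO and 71.35% of WT keratin peaks, against 72.0% and 70.3% at all coding genes. Gene-end windows of 500 bp gave 8 genes marked in both (all coding genes: 68.4%). Windows of 3000 bp gave 36 in both (all coding genes: 88.9%), 0 in WT only (2.48%) and 9 in neither (5.03%). The difference of Irx5KO-only minus WT-only peaks turned to 2 at Krt78 under 50% coverage and to 1 at Krt24 within 10 kb. Causes were not tested. The pooling, the unknown depth and the low ranks of private peaks limit all of these values.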

Other observations

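Some peaks inside the copies of the type II hair keratins looked alike. They were noticed, and picked from several peaks inside each gene, after the values were seen. In Irx5KO the widest peak inside Krt81, Krt83, Krt86 and Krt87 measured 680, 670, 650 and 590 bp, with the authors' scores of 136, 136, 143 and 132. In WT each of these peaks was matched by a pair. The pair measured 560 and 280 bp at Krt81 and 550 and 280 bp at Krt83, with scores of 124 and 98, and of 120 and 98. At Krt86 the narrower one came first along the chromosome, 290 and 570 bp, with scores of 98 and 120, and at Krt87 the pair measured 320 and 210 bp with scores of 110 and 70. The type I copies Krt31 and Krt34 showed the same form, with 1 peak of 720 and 700 bp in Irx5KO and a pair in WT. Their neighbours Krt33a and Krt33b did not: Krt33b had a pair in both lists, of 270 and 370 bp in Irx5KO and 240 and 330 bp in WT, and the shared peaks of Krt33a matched one to one, 360 and 440 bp in Irx5KO and 330 and 400 bp in WT. Scores are set side by side within a list only. Whether reads shared between the copies make these peaks was not tested.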
